A study of Mus musculus with 12 samples.

Results

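How the effects of TGFB2 and BMP4 combined was read from poly(A) RNA of mouse PYMT cells, a line that carries the name of the mouse mammary tumour model made with polyoma middle T antigen. The study asked which programs of dormancy, a lasting arrest of tumour cells, follow from either ligand or from both. Cells in 3D matrigel received no ligand (NT), TGFB2, BMP4 or both (BMP4-TGFB2), each ligand at 5 ng/mL for 3 days, and were collected 2 days after the medium had been changed, once the matrigel had been dissolved. All 12 of 12 libraries were used, 3 per group. Replicates are given as biological, with no word on whether they were separate passages or days, so the p-values reflect only the spread among these cultures. In the main fit that is the spread left after same-numbered libraries were matched. For each gene the interaction is the log2 effect of both ligands against NT less the sum of the log2 effects of TGFB2 and BMP4 alone. A value of 0 means that the ligands multiplied each other's fold changes, a value against the direction of the response means a smaller combined effect than that, and a value in its direction a larger one.

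Of 15319 genes tested, 280 (1.83%) passed the interaction test at an adjusted p under 0.05 in edgeR with the replicate number as a block. Of these, 90 (0.588% of all tested) lay above the sum and 190 (1.24%) below it. Without the block 24 genes passed, 8 above and 16 below, and all 24 were among the 280. Of the named genes, Sdc3, Fxyd5, Igsf11, Igfbp7, Nbeal2, Csn3, Pmepa1, Rflnb, Ogfrl1, Gas7, Gabrp, Gne, Csn1s1, Bmp1, Ccn5 and Ltf passed in both fits. Every other named gene that passed with the block lost its call without it (adjusted p 0.0662 to 0.856), so those calls rest on the replicate number as a block. The spread between libraries, as edgeR's common coefficient of variation, was 0.196 with the block and 0.299 without it. In bulk RNA, fewer cells of a type and less RNA per cell cannot be told apart. Over all tested genes the median interaction was -0.01 and 48.6% of genes lay above 0. At the limit of the test, the last gene inside was Col6a1 (-3.03, adjusted p = 0.0496) and the first outside was Gorasp2 (0.53, adjusted p = 0.0502).

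TGFB2 and BMP4 belong to the same family of secreted ligands and bind paired type I and type II receptor kinases. The TGFB2 receptors act mainly on SMAD2 and SMAD3 and the BMP4 receptors on SMAD1 and SMAD5, and SMAD4 is the partner in both routes. The routes also share feedback inhibitors, among them the inhibitory SMADs, and in epithelial cells both ligands can slow growth, while TGFB ligands induce matrix genes and BMP ligands the Id genes. In mammary epithelium, milk protein genes are a mark of the secretory luminal state and depend on prolactin signalling through STAT5.

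Library totals ran from 28543100 to 42167800 counts, so that 1 CPM (counts scaled to a library total of 1000000) stood for 28.4 to 42.3 counts. The epithelial markers Krt8 (1119 to 1729 CPM), Epcam (704 to 1058 CPM) and Cdh1 (407 to 617 CPM) were present in every library. The pan-leukocyte gene Ptprc stayed at or under 0.915 CPM and the T cell gene Cd3e at or under 0.0703 CPM. The summed leukocyte list, 96.0% of it Cd14, ran from 363 to 490.4 CPM in NT, 98.5 to 167 with TGFB2, 251 to 313 with BMP4 and 73.2 to 100.4 with both. Mitochondrially encoded transcripts made up 1.14% to 1.95% of counts in NT, 1.84% to 2.95% with TGFB2, 1.40% to 1.76% with BMP4 and 1.77% to 2.91% with both. The part of either in the results was not tested. The endothelial list summed to 4.17 to 8.38 CPM over the 12 libraries.

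Most interactions were saturation: each ligand alone moved the gene past a margin of 0.5 log2 units, in the same direction, and the combination lay short of the sum but not short of the stronger ligand by more than the margin. Genes were sorted by the fitted levels in the 4 groups. Falls were counted only where every group mean was at least 1 CPM, which left out 9 of the 280 as near the counting floor. Of the 271 genes counted, 212 (78.2%) were saturation, 147 of them rises and 65 falls. Antagonism, a combined level short of the stronger single response by more than the margin, held 37 genes, and in 3 genes the ligands alone moved the level in opposed directions. By fitted values, with no margin, a further 7 genes lay past NT and past both single levels. Among these, the combination did not pass against NT in edgeR for Nfkbie (-0.22; adjusted p = 0.0978), Crip1 (-0.40; 0.155), Ifi27 (-0.21; 0.273) or Bmp4 (-0.35; 0.452). These 4 are thus not shown to lie past NT. Another 12 were unresolved, with single effects or gaps under the margin. The classes were read from the same libraries as the test, and NT enters both single effects, so they describe the genes and add no evidence.

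**Figure D1:**
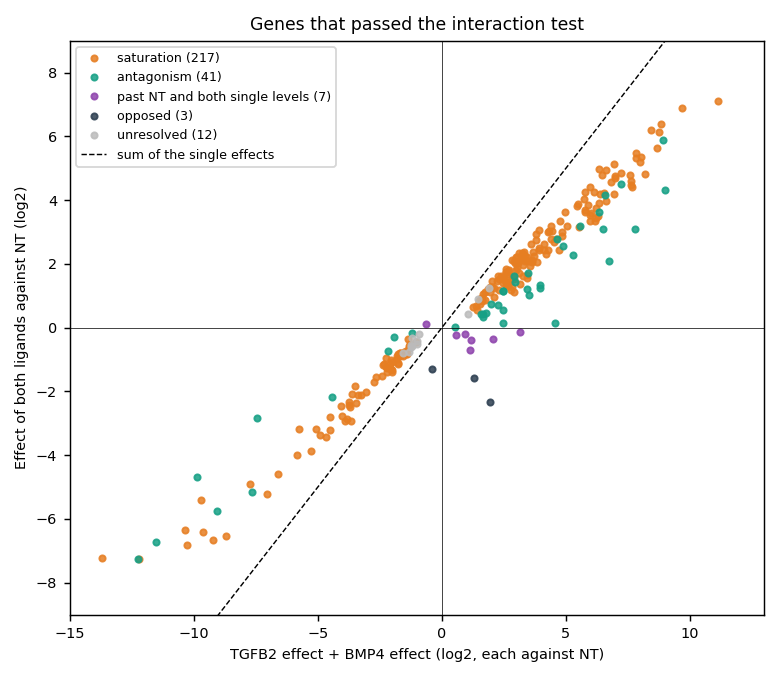
The 280 genes that passed the interaction test, with the sum of the log2 effects of TGFB2 and BMP4 alone on the x axis and the log2 effect of both ligands on the y axis, each against NT, coloured by class. Points for rises lie below the dashed line of the sum and points for falls above it, apart from the opposed fall Nampt.

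In the 147 saturating rises the median log2 effect was 2.13 with TGFB2, 1.54 with BMP4 and 2.30 with both, against a median sum of 3.59. TGFB2 was the stronger ligand in 124 of them and BMP4 in 23. The level with both differed from that of the stronger ligand by a median of 0.04 log2 units (range -0.50 to 1.34) and by no more than 0.5 in 133 of the 147. The 3 libraries with both ligands overlapped those with TGFB2 in 132 of the 147 genes, those with BMP4 in 58 and those of NT in 3. The class itself asks for a combined level near or above that of the stronger ligand, so these counts only describe the genes. Overlap takes no account of the replicate number, and it was not counted over all tested genes.

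Scara3, a scavenger receptor gene (ENSMUSG00000034463.4, chromosome 14, 65919394 to 65953935, in GRCm38 like all positions here), had the smallest p in the interaction test. It stood at 1.78, 1.73 and 3.54 CPM in NT, 40.6, 63.7 and 122 with TGFB2, 8.697, 10.9 and 25.8 with BMP4 and 36.8, 54.5 and 114 with both. The NT libraries were lowest and the BMP4 libraries next, and those with TGFB2 overlapped those with both. Its interaction was -2.77 ± 0.19 log2 units (SE; adjusted p = 0.000652; n = 3 per group). Without the block the adjusted p of Scara3 was 0.241. Timp1, an inhibitor of matrix metalloproteinases, had -1.63 ± 0.15 (adjusted p = 0.00298, and 0.587 without the block), and Igfbp7, an insulin-like growth factor binding protein gene, -1.97 ± 0.20 (adjusted p = 0.00375). Igfbp7 shares exons with Polr2b, whose mean CPM was 23.2% of its own, and the reads of overlapping exons are not told apart in an unstranded library.

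Pmepa1, which encodes a membrane protein that dampens TGFB signalling (ENSMUSG00000038400.15, chromosome 2, 173224458 to 173276533), was at 189, 139 and 147 CPM in NT, 711, 785 and 749 with TGFB2, 481, 427 and 399 with BMP4 and 703, 797 and 729 with both. Libraries with TGFB2 and with both covered the same range, and the BMP4 libraries lay between them and NT without overlap. The interaction was -1.47 ± 0.17 (adjusted p = 0.00565), and the difference between both and TGFB2 alone was -0.01 log2 units. Pmepa1 also passed without the block (adjusted p = 0.0249). The other 3 passing genes of the list of SMADs and pathway inhibitors, of 17 tested, saturated too. Of all tested genes 1.83% passed. Smad7, an inhibitory SMAD induced by both routes, stood at 49.5, 37.3 and 52.3 CPM in NT, 146, 128 and 157 with TGFB2, 139, 127 and 148 with BMP4 and 199.6, 218 and 203 with both. Both single treatments gave overlapping levels, and the combination lay above every library of each, by 0.53 log2 units over TGFB2, while short of the sum (-1.05 ± 0.15; adjusted p = 0.01203).

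Smad6, the inhibitory SMAD that acts chiefly on the BMP route, was at 11.7, 7.14 and 13.1 CPM in NT, 26.4, 32.99 and 29.96 with TGFB2, 94.2, 69.1 and 60.7 with BMP4 and 55.6, 69.8 and 48.6 with both. Here BMP4 was the stronger ligand, and the libraries with both lay above all TGFB2 libraries while overlapping those with BMP4 (-1.84 ± 0.34; adjusted p = 0.0282). Skil, a transcriptional repressor of SMAD targets, had -0.95 ± 0.16 (adjusted p = 0.02296), with means of 146, 405, 293 and 423 CPM in NT, TGFB2, BMP4 and both. Smad7 no longer passed without BMP4-TGFB2 replicate 3 (adjusted p = 0.0512). Smad6 no longer passed without TGFB2 replicate 2 or 3, BMP4 replicate 1 or 2 or BMP4-TGFB2 replicate 1 or 3 (adjusted p 0.0674 to 0.104). Skil passed only where an NT library or BMP4-TGFB2 replicate 2 was the one left out, with adjusted p 0.0516 to 0.0869 otherwise.

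Targets of SMAD2 and SMAD3 held the largest share of interactions among the gene lists. Of 37 members tested, 15 (40.5%) lay below the sum and 0 above, beside 1.24% and 0.588% of all tested genes. All 15 were saturating rises, and the median interaction was -0.89 over the 37 against -0.01 over all genes. Of the 37, 31 rose with TGFB2 alone and 23 with BMP4 alone. Whether the share exceeds that of other genes that respond to both was not tested, for this list or any other. The lists also share members, so their counts are not separate results. Cdkn1a, for example, passed as a member of the lists of SMAD2/3 targets, dormancy-linked genes, CDK inhibitors and p53 targets. DESeq2 called 21 of the 37, limma voom 14 and edgeR without the block 2. Snai1, a repressor of epithelial genes, had -1.20 ± 0.14 (adjusted p = 0.00526) with means of 11.98, 40.97, 28.2 and 41.9 CPM in NT, TGFB2, BMP4 and both. The AP-1 gene Junb (-1.16 ± 0.17; adjusted p = 0.01099) and the stress sensor Gadd45b (-1.29 ± 0.17; adjusted p = 0.00852) had the same order of levels as each other, with both above TGFB2, TGFB2 above BMP4 and BMP4 above NT by the means. These 3 genes passed with any 1 library left out.

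Ccn1, a matricellular protein gene and known target of both SMAD and YAP signalling (ENSMUSG00000028195.4, chromosome 3, 145646976 to 145649981), was at 20.9, 12.5 and 26.4 CPM in NT, 85.7, 72.7 and 151 with TGFB2, 73.6, 75.9 and 134 with BMP4 and 101, 109 and 217 with both. Either ligand alone gave overlapping levels, all above NT, and the libraries with both overlapped each of them (-1.79 ± 0.21; adjusted p = 0.00689). The window around its start is shown because it holds 2 of the 4 motifs searched. Windows ran from 250 bases before to 50 after the start (RefSeq, GRCm38.p6), and the motifs were CAGAC (the SMAD box), GGCGCC (a GC-rich SMAD site), TGANTCA (an AP-1 site) and TTCNNNGAA (a STAT site), on both strands and with no overlap among those capitalised. The window of Ccn1 (chr3:145649936-145650235, minus strand) held 1 CAGAC and 1 GGCGCC, in capitals:
Ccn1: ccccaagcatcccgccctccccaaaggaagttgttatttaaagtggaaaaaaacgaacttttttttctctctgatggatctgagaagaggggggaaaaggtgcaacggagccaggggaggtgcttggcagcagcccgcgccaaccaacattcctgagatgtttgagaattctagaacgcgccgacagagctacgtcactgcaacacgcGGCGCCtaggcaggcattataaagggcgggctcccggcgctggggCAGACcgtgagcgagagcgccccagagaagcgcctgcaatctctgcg

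Among the 11043 tested genes with a window, 47.6% held CAGAC, as did 51.0% of the 104 saturating rises with a window, 44.9% of the 49 saturating falls and 51.9% of the 27 antagonism genes. GGCGCC stood in 21.0% of all windows, and in 21.2%, 30.6% and 22.2% of these 3 classes. The AP-1 motif was in 5.58% of all windows and in 6.73%, 10.2% and 7.41% of the classes, the STAT motif in 6.82% and in 5.77%, 8.16% and 11.1%. The shares describe the letters in these windows and were not tested.

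Matrix genes that passed mostly saturated, apart from Col6a1 and Col8a1. Of 47 members of the list of collagens and matrix, 9 lay below the sum and 0 above, beside 1.24% and 0.588% of all tested genes. The 9 were 7 saturation and 2 antagonism genes, and the median interaction of the list was -0.78. Fbln2, a fibulin of elastic fibres and basement membranes, stood at 23.8, 19.6 and 68.95 CPM in NT, 353, 422 and 1015 with TGFB2, 132, 236 and 715 with BMP4 and 618, 834 and 1515 with both. All libraries with a ligand lay above all of NT, replicate 3 was highest in every group, and the combination overlapped TGFB2 alone (-2.35 ± 0.31; adjusted p = 0.00805). With both ligands Fbln2 was 0.80 log2 units over TGFB2 (adjusted p = 0.325) and higher in each same-numbered pair. By the means in CPM, Fbln2 lay 68.3 above the sum of the single increases, so its shortfall holds on the log2 scale only. Fn1, fibronectin, was at 441, 166 and 417 CPM in NT, 2342, 3604 and 4850.5 with TGFB2, 1171, 1431 and 2329.8 with BMP4 and 1678, 3429 and 4443 with both. The libraries with both overlapped those with TGFB2 and with BMP4, and all exceeded NT (-2.39 ± 0.50; adjusted p = 0.045003). Col12a1 (-2.64 ± 0.39; adjusted p = 0.01203) and Col15a1 (-2.73 ± 0.41; adjusted p = 0.0128), fibril-associated and basement membrane collagens, saturated as well, from 14.1 and 0.336 CPM in NT to 217 and 6.399 CPM with both.

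Fn1 passed only where NT replicate 1 or 2 was the library left out (adjusted p 0.0626 to 0.136 otherwise), and Col12a1 no longer passed without BMP4-TGFB2 replicate 3 (adjusted p = 0.0535). The fibroblast markers of the fixed list, of which Lox made up 82.6%, summed to 11.6 to 29.4 CPM in NT, 155 to 292 with TGFB2, 26.1 to 135 with BMP4 and 121 to 275 with both. Dcn reached 8.84 CPM and Col3a1 5.10 CPM in any library, and 1 of 11 fibroblast markers tested passed the interaction test, Col1a1 (-1.38 ± 0.28; adjusted p = 0.0412). Of all tested genes 1.83% passed, and the part of these markers in the matrix result was not tested. Col1a1 did not pass with any 1 library left out (adjusted p 0.0532 to 0.132).

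**Figure D2:**
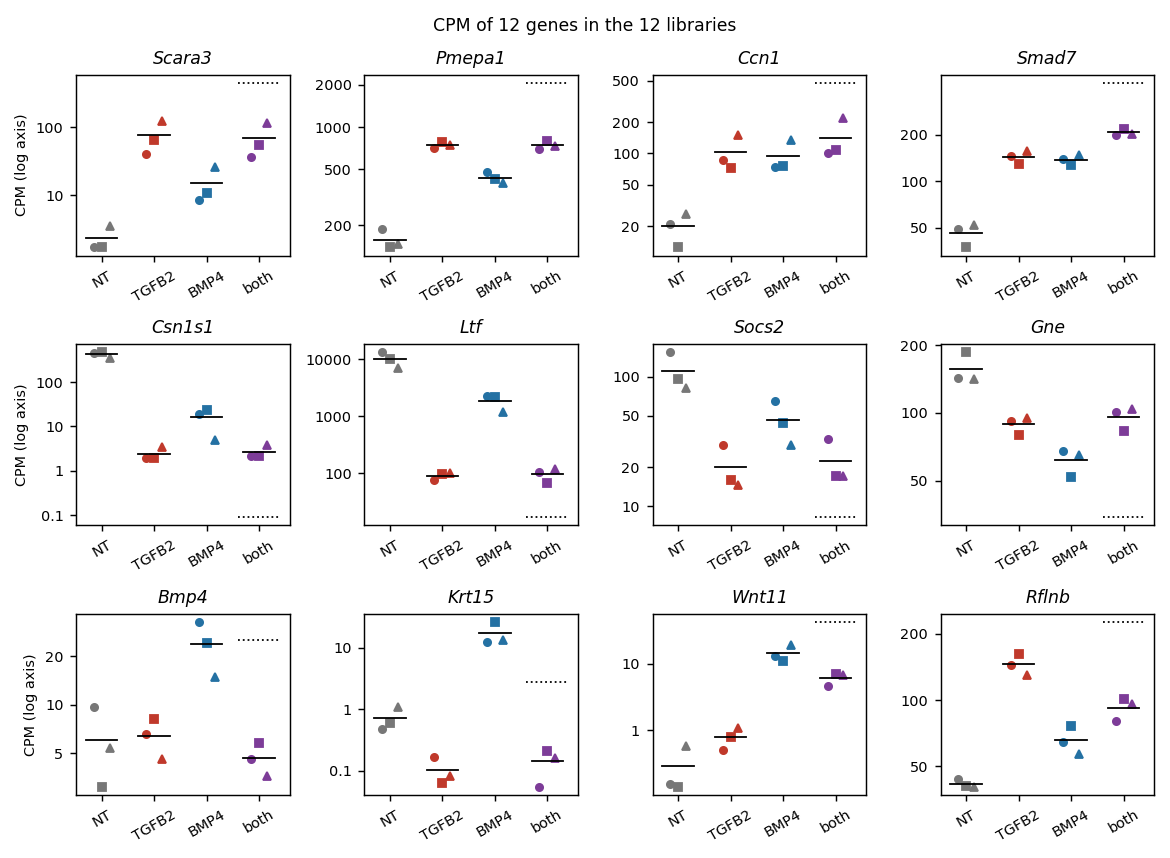
CPM of 12 genes in each of the 12 libraries on a log axis, with circles, squares and triangles for replicates 1, 2 and 3, solid lines for group means and a dotted line at the level the sum of the single log2 effects would give. The top row holds saturating rises, the middle row 3 saturating falls and Gne, the bottom row genes in which the combination fell short of the stronger ligand, and in each panel the mean with both ligands lies away from the dotted line.

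The log2 scale sets what counts as a shortfall. On the linear scale of CPM, 134 of the 147 saturating rises also lay below the sum of the 2 single increases and 13 lay above it. Sdc3, a cell-surface heparan sulfate proteoglycan, lay above that sum by 78.9 CPM, at 8.6998, 5.98 and 12.1 CPM in NT, 153, 233 and 321 with TGFB2, 129, 117 and 167 with BMP4 and 303, 486 and 541 with both. Its libraries with both exceeded all BMP4 libraries and overlapped those with TGFB2, and its log2 interaction was -3.03 ± 0.29 (adjusted p = 0.00298). Jag1, a Notch ligand, lay above by 53.1 CPM with a log2 interaction of -1.33 ± 0.26 (adjusted p = 0.0376). Jag1 passed only without NT replicate 1 or BMP4-TGFB2 replicate 2 among the single libraries left out, with adjusted p 0.0605 to 0.116 without any of the other 10.

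In the 65 saturating falls counted, the median log2 effect was -1.37 with TGFB2, -1.03 with BMP4 and -1.38 with both, against a median sum of -2.34, and TGFB2 was the stronger ligand in 57. The median gap between both and the stronger ligand was 0.02 log2 units, and it was no more than 0.5 in 61 of the 65. Of 22 milk and secretory luminal genes tested, 4 lay above the sum (Csn1s1, Csn3, Ltf and Pigr) and 1 below it (Areg). Over all tested genes 0.588% lay above and 1.24% below. The median interaction of the list was 0.40. Of the 4 milk genes above the sum, Csn1s1 and Ltf were counted as saturating falls, Csn3 was near the counting floor and Pigr was antagonism. Areg was a saturating rise. The median effects over the 22 were -1.04 with TGFB2, -0.57 with BMP4 and -1.75 with both.

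Csn1s1, alpha-S1-casein (ENSMUSG00000070702.9, chromosome 5, 87666208 to 87682578), stood at 460.2, 468 and 346 CPM in NT, 1.94, 1.99 and 3.35 with TGFB2, 19.2, 23.7 and 4.92 with BMP4 and 2.12, 2.15 and 3.83 with both. The libraries with TGFB2 and with both lay between 1.94 and 3.83 CPM, and those with BMP4 above them, from 4.92 CPM. Its interaction was 4.93 ± 0.72 (adjusted p = 0.01203), and the level that the sum of the single effects would give lay under 1 CPM. Without the block the adjusted p was 0.0249, and with every replicate 1 library left out it was 0.0648. Its window (chr5:87665958-87666257, plus strand; RefSeq, GRCm38.p6) is shown because it holds 1 STAT motif, the site class used by prolactin signalling, and 1 AP-1 motif, in capitals:
Csn1s1: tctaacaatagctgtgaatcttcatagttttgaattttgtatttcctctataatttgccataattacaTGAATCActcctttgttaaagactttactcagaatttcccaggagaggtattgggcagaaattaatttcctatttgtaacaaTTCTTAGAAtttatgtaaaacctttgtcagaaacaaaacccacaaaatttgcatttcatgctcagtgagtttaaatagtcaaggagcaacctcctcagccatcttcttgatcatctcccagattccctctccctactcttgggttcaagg

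Csn3, kappa-casein, fell from 157, 217 and 116 CPM in NT to 0.568, 0.705 and 1.66 with TGFB2, 1.93, 2.75 and 1.69 with BMP4 and 0.552, 0.668 and 2.19 with both. The last of these groups averaged 1.14 CPM and that of TGFB2 0.979, so Csn3 was set aside as near the counting floor, and its interaction of 6.47 ± 0.72 (adjusted p = 0.00526) rests on levels near 1 CPM. Ltf, the iron-binding milk protein lactotransferrin (ENSMUSG00000032496.7, chromosome 9, 111019271 to 111042767), was far from that floor, at 13352, 10345 and 7051 CPM in NT, 75.9, 96.3 and 100.1 with TGFB2, 2286, 2170.3 and 1177 with BMP4 and 107, 68.2 and 121 with both. Libraries with TGFB2 and with both overlapped, and the BMP4 libraries lay between them and NT (2.56 ± 0.42; adjusted p = 0.0193). Left out singly, NT replicate 2, TGFB2 replicate 1 or 2, BMP4 replicate 1 and BMP4-TGFB2 replicate 1 or 3 each ended the call of Ltf (adjusted p 0.0503 to 0.0659). Elf5, the luminal transcription factor that drives milk genes, fell with each treatment (-3.93 log2 units with TGFB2, -1.5 with BMP4, -4.76 with both). It did not pass the interaction test (0.67 ± 0.21; adjusted p = 0.154). The windows of Ltf and Elf5 held 0 STAT motifs, and that of Pigr held 1.

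Socs2, a feedback inhibitor of growth hormone and prolactin signalling (ENSMUSG00000020027.18, chromosome 10, 95385362 to 95417180), was at 155, 96.1 and 81.8 CPM in NT, 29.8, 15.8 and 14.7 with TGFB2, 65.4, 44.03 and 29.8 with BMP4 and 33.3, 17.1 and 16.9 with both. Replicate 1 was highest in every group, and the libraries with both overlapped those with TGFB2 (1.43 ± 0.15; adjusted p = 0.00476). Ogfrl1, a gene of little known function, went from a mean of 215 ± 48.4 CPM (SD) in NT to 16.3 ± 1.79 with TGFB2, 49.2 ± 15.4 with BMP4 and 13.4 ± 0.361 with both (1.85 ± 0.23; adjusted p = 0.00728). Plet1, a surface marker of luminal progenitors, had 1.33 ± 0.16 (adjusted p = 0.00772), and its libraries with both (81.7, 54.8 and 40.1 CPM) reached below those with TGFB2 (131, 79.1 and 59.5 CPM) while overlapping them. Nbeal2 (1.29 ± 0.14; adjusted p = 0.00476) and Gas7 (2.83 ± 0.37; adjusted p = 0.00805) passed like these with any 1 library left out. Ccl28, an epithelial chemokine, fell from 169 CPM in NT to 2.01 with TGFB2, 18.5 with BMP4 and 1.96 with both (3.24 ± 0.48; adjusted p = 0.01203), and no longer passed without BMP4-TGFB2 replicate 1 (adjusted p = 0.0520).

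Antagonism held 31 rises and 6 falls among the genes counted, beside 147 and 65 for saturation. The floor of 1 CPM was set for falls only. It left out 4 further antagonism falls, while rises from an NT mean under 1 CPM, such as Wnt11 and Lsp1, stayed in. With the 7 genes whose fitted level lay past NT and both single levels, there were 44 counted genes in which the combination fell short. In all 7 the interaction went against the stronger single response. BMP4 was the stronger ligand in 24 of the 44 and TGFB2 in 20. In 10 genes BMP4 moved the level and TGFB2 alone left it within the margin. In these 10, 9 rises and 1 fall, the median log2 effect of BMP4 was 1.67 alone and -0.01 on top of TGFB2 (range -0.80 to 1.89). They were chosen by the interaction and a combined level short of BMP4 alone, so a smaller effect on top is built in. TGFB2 alone was outside the margin in the other 14 genes led by BMP4.

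Bmp4 itself was among the 10 (ENSMUSG00000021835.15, chromosome 14, 46383520 to 46390669), at 9.72, 3.12 and 5.43 CPM in NT, 6.58, 8.14 and 4.601 with TGFB2, 32.7, 24.2 and 14.9 with BMP4 and 4.64, 5.84 and 3.599 with both. The BMP4 libraries were above all 9 others, and the libraries with both lay within the range of NT and TGFB2. The interaction was -2.40 ± 0.47 (adjusted p = 0.0369). It passed only where an NT library was the one left out, with adjusted p 0.0595 to 0.115 without any of the other 9. The added ligand was given as protein, and transcripts were counted here. Against NT, Bmp4 passed with BMP4 alone (1.95 log2 units) and not with TGFB2 alone (0.10). The window around its start (chr14:46390620-46390919, minus strand, RefSeq, GRCm38.p6) is shown because the gene encodes an added ligand. It held 0 matches to the 4 motifs, so no letters are in capitals:
Bmp4: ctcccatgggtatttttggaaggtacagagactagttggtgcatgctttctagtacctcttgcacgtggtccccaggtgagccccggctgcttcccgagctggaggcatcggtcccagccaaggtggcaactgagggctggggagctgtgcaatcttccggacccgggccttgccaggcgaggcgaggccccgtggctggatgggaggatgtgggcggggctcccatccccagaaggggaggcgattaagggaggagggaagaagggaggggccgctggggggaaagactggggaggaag

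Col6a1, a collagen VI chain (ENSMUSG00000001119.7, chromosome 10, 76708792 to 76726168), was another of the 10, at 7.97, 5.58 and 10.1 CPM in NT, 5.72, 15.8 and 11.9 with TGFB2, 326, 303 and 124 with BMP4 and 25.9, 72.4 and 29.7 with both. The BMP4 libraries were highest, the libraries with both lay between them and the rest, and TGFB2 alone overlapped NT (-3.03 ± 0.65; adjusted p = 0.0496). On top of TGFB2, BMP4 still added 1.89 log2 units, against 4.92 alone. Its partner chain Col6a2 had the same order of levels (2.18, 3.85, 82.8 and 13.6 CPM in NT, TGFB2, BMP4 and both) and did not pass (-3.40 ± 0.83; adjusted p = 0.0759). Col6a1 passed only where NT replicate 3 or BMP4 replicate 3 was the library left out, with adjusted p 0.0569 to 0.151 otherwise.

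Wnt11, a Wnt ligand (ENSMUSG00000015957.12, chromosome 7, 98835112 to 98855195), stood at 0.157, 0.142 and 0.5701 CPM in NT, 0.497, 0.802 and 1.08 with TGFB2, 13.3, 10.9 and 19.1 with BMP4 and 4.61, 7.03 and 6.84 with both. The groups did not overlap except for NT replicate 3 with the TGFB2 libraries, and the libraries with both lay between TGFB2 and BMP4 (-2.71 ± 0.47; adjusted p = 0.0252). Wnt11 was also 1 of 6 genes (0.0392% of all tested; 2 higher, 4 lower) that passed between BMP4-TGFB2 and TGFB2, with 3.01 log2 units. The Wnt list had 4 of 22 members below the sum and 0 above, with a median of -0.88, beside 1.24% and 0.588% of all tested genes. Nkd2, an inhibitor of Wnt signalling, was 1 of them, with means of 125, 197, 267 and 176 CPM in NT, TGFB2, BMP4 and both (-1.21 ± 0.20; adjusted p = 0.0222). Wnt9a saturated instead (-1.60 ± 0.26; adjusted p = 0.0193). Each of these 3 calls was lost without any 1 of 7 libraries (adjusted p 0.0512 to 0.0881), which for all 3 included TGFB2 replicates 2 and 3 and BMP4-TGFB2 replicates 1 and 3. The others were NT replicate 2 and BMP4 replicates 1 and 3 for Wnt11, TGFB2 replicate 1 and BMP4 replicates 1 and 2 for Nkd2, and TGFB2 replicate 1 and BMP4 replicates 2 and 3 for Wnt9a.

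In 3 genes the single ligands were opposed. Krt15, a keratin of basal and progenitor cells (ENSMUSG00000054146.8, chromosome 11, 100131758 to 100135928), was at 0.4703, 0.595 and 1.08 CPM in NT, 0.166, 0.0641 and 0.0832 with TGFB2, 12.3, 26.5 and 13.3 with BMP4 and 0.0552, 0.211 and 0.164 with both. The BMP4 libraries were above all others, those with TGFB2 were below NT, and the libraries with both overlapped those with TGFB2 (-4.29 ± 0.84; adjusted p = 0.0369). All levels other than those with BMP4 were near or under 1 CPM. Nampt, an enzyme of NAD salvage, was at 150.2, 108 and 106 CPM in NT, 72.3, 43.4 and 38.6 with TGFB2, 335, 215 and 145 with BMP4 and 61.8, 48.8 and 39.3 with both. The libraries with both overlapped those with TGFB2 and lay below all of NT, while the BMP4 libraries overlapped NT in 1 library (-0.88 ± 0.18; adjusted p = 0.0429). The transporter gene Abcc3 had means of 3.39, 1.35, 24.2 and 1.18 CPM in NT, TGFB2, BMP4 and both (-2.90 ± 0.60; adjusted p = 0.0429). Leaving out single libraries ended the call of Krt15 in 9 of 12 cases (all but NT replicates 1 and 3 and BMP4 replicate 3), that of Nampt in 10 (all but NT replicate 3 and BMP4 replicate 3) and that of Abcc3 in 11 (all but NT replicate 3), with adjusted p 0.0569 to 0.142.

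TGFB2 was the stronger ligand in 20 genes whose combined level fell short, and in 17 of these BMP4 alone was also past the margin. None of the 20 passed in edgeR between BMP4-TGFB2 and TGFB2 (adjusted p 0.0734 for Rflnb, 0.369 for Pla2g7 and 0.483 for Lsp1). That their combined level lay short of TGFB2 alone is thus read from fitted values only. Rflnb, a gene of the actin-binding refilin family (ENSMUSG00000020846.6, chromosome 11, 76019194 to 76027782), stood at 43.9, 40.6 and 40.4 CPM in NT, 145, 162 and 129.8 with TGFB2, 64.4, 76.3 and 56.95 with BMP4 and 80.3, 101 and 95.7 with both. The TGFB2 libraries were above all others, and the libraries with both lay between them and the BMP4 libraries with no overlap (-1.30 ± 0.16; adjusted p = 0.00728). It passed with any 1 library left out and without the block. Pla2g7, a phospholipase that degrades platelet-activating factor, had means of 19.3, 93.99, 47.6 and 66.9 CPM in NT, TGFB2, BMP4 and both (-1.77 ± 0.21; adjusted p = 0.006305), and the actin-binding Lsp1 had 0.593, 10.9, 2.45 and 7.201 (-2.71 ± 0.30; adjusted p = 0.00526).

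Among falls, 6 counted genes were antagonism. Gne, the first enzyme of sialic acid synthesis (ENSMUSG00000028479.18, chromosome 4, 44034075 to 44084177), was at 143, 186 and 142 CPM in NT, 92.4, 79.7 and 95.4 with TGFB2, 67.9, 51.97 and 64.98 with BMP4 and 101, 82.7 and 104 with both. The BMP4 libraries were lowest, and the libraries with both lay above all BMP4 libraries and overlapped those with TGFB2 (1.46 ± 0.21; adjusted p = 0.0101). Pigr, which carries immunoglobulin across the epithelium, was at 589.5, 286 and 70.7 CPM in NT, 1.94, 1.06 and 1.33 with TGFB2, 34.5, 17.8 and 3.83 with BMP4 and 3.81, 0.985 and 2.39 with both. Replicate 1 was the highest of NT and replicate 3 the lowest, and libraries with both overlapped those with TGFB2 near 1 CPM (4.79 ± 0.83; adjusted p = 0.0241). Mycn, a transcription factor of the Myc family, had means of 9.74, 3.47, 1.36 and 2.303 CPM in NT, TGFB2, BMP4 and both (2.24 ± 0.48; adjusted p = 0.0495). Gne passed with any 1 library left out. Pigr was lost in 7 of 12 such fits (without NT replicate 2, TGFB2 replicate 1 or 2, BMP4 replicate 1 or 2, or BMP4-TGFB2 replicate 1 or 3) and Mycn in 11 of 12 (all but NT replicate 1), with adjusted p 0.0517 to 0.164.

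No gene passed for a combined effect beyond the sum in the direction of the stronger ligand, apart from Nampt, whose single effects were opposed. The count was 0 of 15319 in edgeR with the block and 36 at an unadjusted p under 0.05, opposed ligands left out. At that p, 2451 genes had an interaction against the stronger ligand, opposed ligands included. The stronger ligand was picked from the same libraries and NT enters both measures, so these counts do not test a direction. DESeq2 called 6 genes beyond the sum in the direction of the stronger ligand, limma voom 1, limma on log2(TPM + 0.5) 1 and edgeR with no filter on low counts 5. Spp1, osteopontin, was chosen after its values were seen because it came close at high abundance. It was at 1275, 1500.4 and 1594 CPM in NT, 1009.8, 1504 and 874 with TGFB2, 917, 1258 and 1101 with BMP4 and 327, 587 and 417 with both. The TGFB2 libraries overlapped both NT and BMP4, and the libraries with both ligands lay below all others (-0.93 ± 0.21; adjusted p = 0.0619). Slc2a6, a sugar transporter gene chosen in the same way, had -1.26 ± 0.29 (adjusted p = 0.0601) at means of 10.98, 4.62, 12.8 and 2.27 CPM in NT, TGFB2, BMP4 and both.

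The effect of each ligand was also set against its effect on top of the other, in comparisons that share no library. Against NT, TGFB2 changed 5799 genes (37.9%) and BMP4 2356 (15.4%). The 1318 genes that BMP4 raised had a median log2 effect of 0.87 in cells without TGFB2, which chose them, and of 0.14 (quartiles 0.01 and 0.33) between BMP4-TGFB2 and TGFB2, where 2 of them passed in the same direction. The 1038 that BMP4 lowered went from -0.68 to -0.12, with 3 passing. TGFB2 kept more of its effect: its 2861 rises had a median of 0.88 against NT and 0.47 on top of BMP4, where 1357 passed in the same direction, and its 2938 falls -0.75 and -0.47, with 1425 passing. Between BMP4-TGFB2 and BMP4, 3476 genes passed in all (22.7%). At least 0.5 of the NT-based effect was kept by 10.4% of BMP4 rises and 58.0% of TGFB2 rises. The NT-based medians are inflated by the choice of genes on them, and this choice bore on both ligands.

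**Figure D3:**
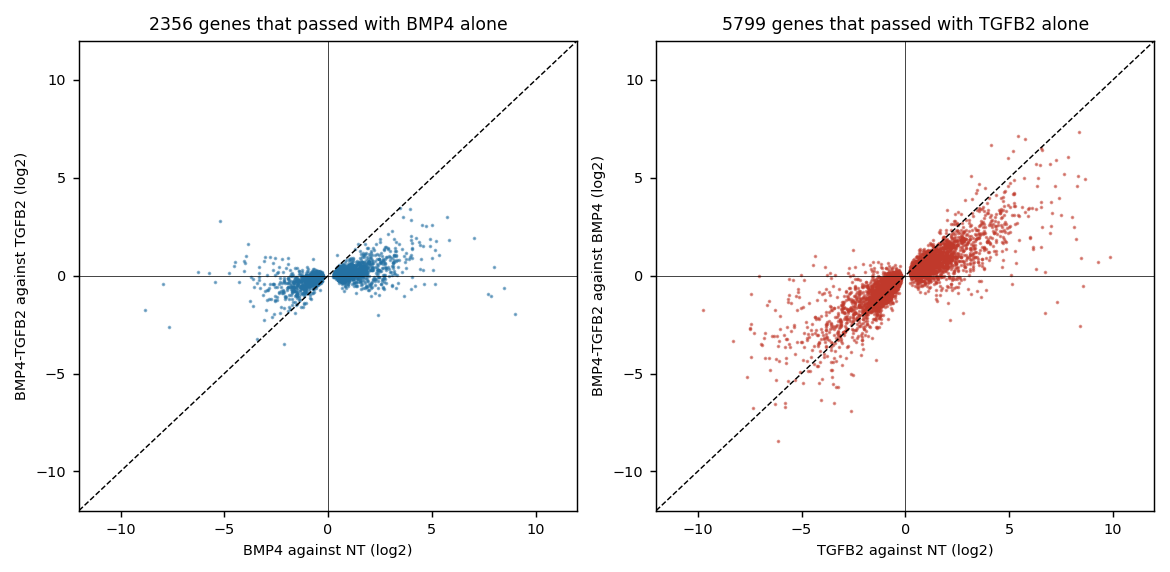
Log2 effect of a ligand against NT (x axis) and on top of the other ligand (y axis) for the genes that passed against NT, BMP4 on the left and TGFB2 on the right, with a dashed line of equal effects. BMP4 effects lie along the x axis, and TGFB2 effects lie nearer the dashed line.

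The Id genes, direct targets of the BMP route, did not pass the interaction test in edgeR with the block. In DESeq2 Id2 passed (adjusted p = 0.0046), and Id1 (0.129) and Id3 (0.140) did not. Id1 was at 194, 167 and 225 CPM in NT, 231, 293 and 231 with TGFB2, 495, 375 and 405 with BMP4 and 405, 369 and 329 with both. All BMP4 libraries and all with both lay above NT and TGFB2 (-0.57 ± 0.21; adjusted p = 0.2205). Id2 was at 318, 306 and 302 CPM in NT, 139.6, 150.5 and 111 with TGFB2, 489, 390.1 and 359.7 with BMP4 and 316, 290.4 and 228 with both. TGFB2 libraries were lowest, BMP4 libraries highest, and those with both reached from NT levels to below them (0.65 ± 0.15; adjusted p = 0.0658). Id2 was the other rise among the 6 genes that passed between BMP4-TGFB2 and TGFB2 (1.05). Id3 had -0.78 ± 0.32 (adjusted p = 0.263). In the BMP SMAD1/5 response list 2 of 23 members passed in edgeR with the block, beside 1.83% of all tested genes, and DESeq2 called 4. The 2 in edgeR were inhibitory SMADs below the sum. The median of the list was -0.78, and 18 of the 23 had risen with BMP4 alone.

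Of 13 ligand genes tested, 2 lay below the sum: Bmp4, and Bmp1, a procollagen protease named with the BMPs (-0.95 ± 0.14; adjusted p = 0.01203). Of 18 extracellular antagonists and latent TGFB binders, 4 lay below and 0 above (median -0.84), beside 1.24% and 0.588% of all tested genes. The 4 included Nbl1, a secreted BMP antagonist (-2.41 ± 0.33, adjusted p = 0.00852), at 5.77, 2.41 and 2.34 CPM in NT, 33.4, 22.9 and 17.1 with TGFB2, 62.2, 22.9 and 14.02 with BMP4 and 51.9, 39.2 and 27.6 with both. NT lay lowest, and the other 3 groups overlapped each other. Ltbp2, a latent TGFB binding protein gene, had -1.65 ± 0.34 (adjusted p = 0.0429), and Fstl3, an activin antagonist, -0.97 ± 0.19 (adjusted p = 0.0383). Of 14 receptor genes 0 passed in edgeR, 2 at an unadjusted p under 0.05, with 2 in DESeq2 and 1 in limma voom.

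Bmp1 no longer passed without TGFB2 replicate 2 or BMP4-TGFB2 replicate 3 (adjusted p 0.0502 to 0.0523). Ltbp2 passed only where NT replicate 1 or 2 was the library left out, and Fstl3 only for NT replicate 1 or 2 or BMP4-TGFB2 replicate 3, with adjusted p 0.0579 to 0.132 otherwise. Transcripts of Tgfb2 itself fell with TGFB2 (-1.84) and with both (-1.72), with no interaction past the threshold (0.48 ± 0.25; adjusted p = 0.387).

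Of 46 genes of cell cycle and DNA replication, 0 passed in edgeR, DESeq2 or limma voom and 1 at an unadjusted p under 0.05, beside 1.83% of all tested genes in edgeR. The interaction was below 0 in 41 of the 46, with a median of -0.28, while 24 fell with TGFB2, 1 with BMP4 and 36 with both. Mki67, a marker of cycling cells, was at 185, 324 and 269 CPM in NT, 18.1, 103 and 158 with TGFB2, 109, 227 and 242 with BMP4 and 9.41, 89.7 and 143 with both. Replicate 1 lay lowest in every group, and the ranges with TGFB2 and with both overlapped (0.27 ± 0.72; adjusted p = 0.9002). Of 30 dormancy-linked genes 3 lay below the sum, Cdkn1a, Gadd45b and Dusp1, and 0 above, beside 1.24% and 0.588% of all tested genes. Cdkn1a and Gadd45b were also counted among the SMAD2/3 targets. Cdkn1a, the CDK inhibitor p21 and a p53 target, was at 329.7, 156 and 177 CPM in NT, 774, 548 and 476 with TGFB2, 512, 341 and 298 with BMP4 and 758, 561 and 524 with both. NT and BMP4 libraries overlapped at the lower end, and the libraries with both overlapped those with TGFB2 (-0.78 ± 0.17; adjusted p = 0.0494). Dusp1, a MAP kinase phosphatase gene, had -1.25 ± 0.24 (adjusted p = 0.0339) but shares exons with Ergic1, which averaged 281% of its CPM.

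The quiescence genes Cdkn1b (0.20 ± 0.16; adjusted p = 0.587), Nr2f1 (0.64 ± 0.40; adjusted p = 0.479), Sox9 (0.17 ± 0.20; adjusted p = 0.734) and Bhlhe41 (-0.36 ± 0.31; adjusted p = 0.635) did not pass. Nr2f1 shares exons with A830082K12Rik, at 17.0% of its mean CPM. Bhlhe41, a repressor linked to dormancy, was at 94.5, 51.6 and 50.9 CPM in NT, 199, 246 and 217 with TGFB2, 47.99, 28.4 and 33.3 with BMP4 and 89.5, 102 and 98.9 with both, with TGFB2 highest, and the libraries with both overlapped NT and lay above those with BMP4. Vim (-0.48 ± 0.47; adjusted p = 0.681) and Cdh1 (-0.13 ± 0.11; adjusted p = 0.619), structural markers of the mesenchymal and epithelial states, did not pass either. Among single libraries, Cdkn1a passed only with NT replicate 1 left out (adjusted p 0.0629 to 0.154 otherwise), and Dusp1 only with NT replicate 1 or 3 or BMP4-TGFB2 replicate 2 left out (0.0624 to 0.106 otherwise).

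Interferon-stimulated genes had a median interaction of 0.85 over 54 tested members, with 50 falling with TGFB2, 44 with BMP4 and 50 with both. Of the 54, 1 passed above the sum and 1 below, beside 0.588% and 1.24% of all tested genes. Rnf213, a large ubiquitin ligase induced by interferon, was at 1900.1, 1347 and 1121 CPM in NT, 188, 205 and 249.5 with TGFB2, 377, 415 and 542 with BMP4 and 170.1, 237 and 222 with both. Libraries with both overlapped those with TGFB2, and the BMP4 libraries lay between them and NT (1.70 ± 0.31; adjusted p = 0.0277). Ifi27 was 1 of the 7 genes with a fitted level past NT and both single levels. It was at 75.1, 80.98 and 106 CPM in NT, 91.2, 102 and 113 with TGFB2, 167, 125 and 126 with BMP4 and 75.2, 67.4 and 82.6 with both. BMP4 libraries were highest, and the libraries with both overlapped NT at its lower end (-1.14 ± 0.21; adjusted p = 0.0281). At an unadjusted p under 0.05, 26 of the 54 passed, and DESeq2 called 8. In the MHC class I list 0 of 21 passed in edgeR, DESeq2 or limma voom, 3 at an unadjusted p under 0.05, with a median of 0.24. Rnf213 was lost in 8 of 12 fits without 1 library (all but those without NT replicate 1 or 3, BMP4 replicate 3 or BMP4-TGFB2 replicate 1), and Ifi27 in 7 (all but NT replicates 1 and 3, TGFB2 replicate 1 and BMP4 replicates 1 and 3), with adjusted p 0.0535 to 0.105.

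**Figure D4:**
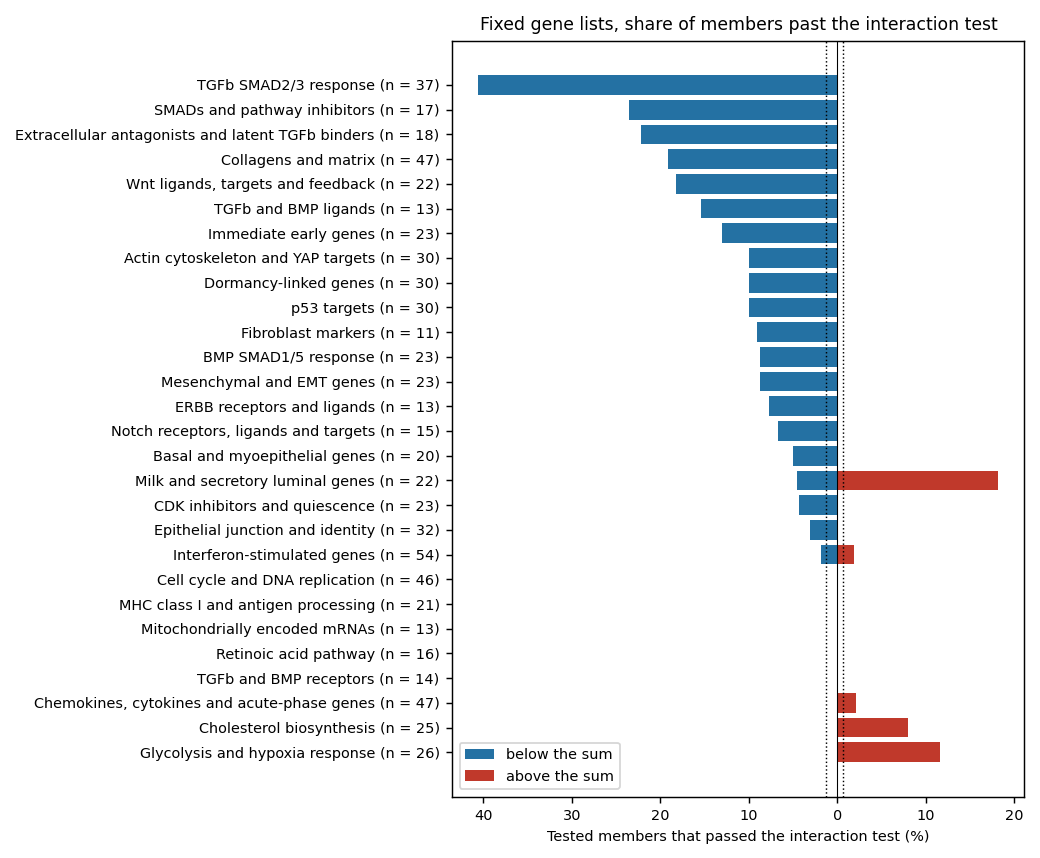
Share of the tested members of each fixed list with at least 10 tested members that passed the interaction test, below the sum to the left and above it to the right, with dotted lines at the shares of all tested genes (1.24% and 0.588%). The list of SMAD2/3 targets reaches furthest to the left, with 15 of 37, and the milk list furthest to the right, with 4 of 22.

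Of 26 glycolysis and hypoxia genes 3 lay above the sum and 0 below: Egln3, an oxygen-sensing hydroxylase (1.56 ± 0.24; adjusted p = 0.0149), Car12, a carbonic anhydrase (2.01 ± 0.41; adjusted p = 0.0434), and Hk2, hexokinase (0.74 ± 0.16; adjusted p = 0.0482), while the median of the list was -0.07. Over all tested genes 0.588% lay above the sum and 1.24% below. Egln3 and Car12 were saturating falls. Hk2 was at 139.8, 126 and 113 CPM in NT, 173, 102 and 124 with TGFB2, 89.6, 75.9 and 71.8 with BMP4 and 169, 123 and 123 with both. BMP4 libraries were lowest, and those with both stood with NT and TGFB2. Of 25 cholesterol genes 2 lay above and 0 below (median 0.39): Sqle, squalene epoxidase (0.75 ± 0.15; adjusted p = 0.042003), and Acss2, an acetyl-CoA synthetase (1.51 ± 0.29; adjusted p = 0.0358), which shares exons with Gss, at 339% of its mean CPM. Egln3 no longer passed without TGFB2 replicate 2 or BMP4-TGFB2 replicate 1 or 3 (adjusted p 0.0512 to 0.0580). The other 4 were each lost without most single libraries, Car12 in 10 of 12 fits (all but NT replicate 3 and TGFB2 replicate 3), Hk2 and Sqle in 11 (all but NT replicate 1) and Acss2 in 8 (all but NT replicates 1 and 3, TGFB2 replicate 3 and BMP4 replicate 1), with adjusted p 0.0523 to 0.142.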

How the data were processed

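The 12 libraries, 3 in each of 4 groups, were made from RNA enriched on oligo(dT) beads, as the labels' protocols state. The tools named in the submitters' processing notes are Salmon 1.2.1, STAR 2.7.5b and bcl2fastq 2.17, with the build GRCm38.p6 and no role for each. Estimated counts for each gene, as the authors deposited them, were rounded to whole numbers here (82.9% already were). The signal values of a second deposited table are those counts over size factors of 0.844 to 1.24 and were used only for checks, and the deposited TPM values entered 1 alternative. Other deposited fields, per the file headers, give a batch and an unstranded library type that were the same for all libraries.

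Of 54347 genes, 15319 passed filterByExpr with a minimum count of 10. They were fitted in 1 model by group and replicate number with the quasi-likelihood test of edgeR 4.0.16 (R 4.3.3) after TMM scaling (factors 0.971 to 1.03), with Benjamini-Hochberg adjustment over all tested genes. Where no tool is named, an adjusted p-value comes from this edgeR test. Values after ± are SE for log2 values and SD over 3 libraries for CPM. The test was tested on simulated data. DESeq2 1.42.0, limma 3.58.1, other filters and scalings, and fits without 1 library were alternatives. Libraries of 1 group differed by a chi-square of at least 20.4 per degree of freedom, so none was taken as a copy of another. This does not tell whether they came from separate passages or days.

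Named genes were the 10 with the smallest p in each direction, at a mean log2 CPM of 2 or more and with no predicted or clone name, up to 6 per class and direction, up to 3 passing members per list, and a fixed set that included Id1, Id2, Smad7, Csn3, Mki67 and Bmp4. Not all 99 are printed. The question, the 31 lists with 738 genes and the named genes were chosen with earlier results of these data known. Positions are from GENCODE M21 (GRCm38), in which 282 of 293 identifiers were found. A partner gene that shares exons is named where its mean CPM exceeded 10% of that of the gene.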

Additional observations from a re-analysis of the deposited data

Results flagged for a closer look

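The effect of BMP4 differed between cells without and with TGFB2, by the test of the interaction itself, in 280 genes. The difference lay above the sum of the single effects in 90 genes and below it in 190. Of the 280, 275 had passed with BMP4 alone and 270 with TGFB2 alone, beside 15.4% and 37.9% of all tested genes. NT enters the single effects and the interaction, so these counts are tied to the choice of the 280. Among the 275, 124 had a fitted BMP4 effect of the opposite sign on top of TGFB2. Between BMP4-TGFB2 and TGFB2 only 6 of all tested genes passed, so these signs are not shown to be reversals. With 3 libraries per group, single libraries far from the others of their group were not looked for.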

How the results depend on the processing

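The 280 genes kept the sign of the interaction in each alternative that tested them (276 of them with a mean of at least 1 CPM, all 280 in the others), while the number that passed moved widely. It was 24 with no replicate block (8 above the sum, 16 below), 611 with no filter on low counts (208 and 403), 808 in DESeq2 (282 and 526, with all 280 among them) and 81 in limma on log2(TPM + 0.5) (28 and 53). With libraries left out it ran from 1 to 447 (0 to 117 above, 1 to 330 below). Leaving out 1 library gave 61 to 447, every replicate 1 library 145, replicate 2 1 and replicate 3 33. RLE scaling (270), a mean of at least 1 CPM (319), limma voom (342) and robust fitting (311) stayed within 1.5 times. Of 86 named genes that passed, 16 passed with no replicate block, 86 in DESeq2, 84 in limma voom and 33 in each of the 12 fits without 1 library. After group means were taken off, libraries with the same number correlated above 0.1 in 16 of 18 pairs (0.0256 to 0.505), and 10 of 12 libraries correlated best with their own number in every other group. Of 36 checks of a library against another group, 34 were best with the own number, and NT replicate 2 was the weak match. Same-numbered libraries thus varied together in most pairs, while the labels do not say that these cultures were run together.

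With no replicate block, 3423 genes passed for TGFB2 against NT, 833 for BMP4, 4007 for both, 1412 for both against BMP4 and 0 for both against TGFB2 (516 at an unadjusted p under 0.05). The last count was 10 with RLE scaling, robust fitting or TPM, 136 with no filter, 183 in DESeq2 and 21 in limma voom. With libraries left out these counts ran from 3140 to 5765, 718 to 2342, 3915 to 6283, 1512 to 4144 and 0 to 13. Genes beyond the sum numbered 5 with no filter, 6 in DESeq2, 1 in limma voom, 1 with TPM and 0 to 1 with libraries left out, an alternative chosen after seeing the data. With no replicate block 18 genes were saturation, 4 antagonism, 0 past both single levels and 0 opposed, and with a whole replicate left out 1 to 125, 0 to 13, 0 to 2 and 0. A margin of 0.25 gave 63 antagonism genes and a margin of 1 gave 10. With synergy counted only in the direction of the stronger ligand, chosen after seeing the data, it held 0 genes. The interaction of Mki67 turned to -0.51 without NT replicate 1, -0.04 without TGFB2 replicate 1 and -0.27 without BMP4-TGFB2 replicate 3, within -0.51 to 0.73 over the single libraries left out. The causes were not tested.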

Other observations

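A few other groups of genes were measured, beside 1.24% of all tested genes below the sum and 0.588% above. Of 30 genes of the actin cytoskeleton and YAP targets 3 lay below the sum and 0 above, among them Fhl2, a LIM-domain coactivator (-1.41 ± 0.27; adjusted p = 0.0356), and Ankrd1 (-1.21 ± 0.24; adjusted p = 0.0369). Of 30 p53 targets 3 lay below, Cdkn1a, Phlda3 (-0.66 ± 0.13) and Ak1 (-1.07 ± 0.14; adjusted p = 0.00852). The claudin gene Cldn4, a tight junction component, was the only 1 of 32 genes of epithelial junctions and identity to pass (-0.87 ± 0.16; adjusted p = 0.0277), at 308, 162 and 162 CPM in NT, 2129.6, 860.4 and 1199 with TGFB2, 731, 277 and 412 with BMP4 and 2449, 1124 and 1358 with both. In the retinoic acid pathway 0 of 16 passed in edgeR with the block, 9 at an unadjusted p under 0.05, 6 in DESeq2 and 1 in limma voom. Fhl2 and Ankrd1 were each lost in 9 of 12 fits without 1 library, Cldn4 in 8 and Phlda3 in 10 (adjusted p 0.0618 to 0.120), those without a TGFB2 library among them for all 4.

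The 9 falls near the counting floor, which the class counts leave out, included Muc4 (3.99 ± 0.52) and Gabrp (3.47 ± 0.46). Muc4 shares exons with Muc20, which averaged 776% of its CPM. Fgfr2, an antagonism gene (-2.48 ± 0.38; adjusted p = 0.0137), shares exons with Ctbp2, at 2424% of its mean CPM, and Ctla2a (-3.05 ± 0.40) with Gm49391, at 18.8%.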
